A study of Mus musculus with 9 samples.

Results

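Vpreb3, Lmo2, Neurl3, Emid1, Fam101b, Treml2, Lrrk2 and Dennd3 are 8 of the 22178 genes in a table of TPM values (transcript abundance scaled to gene length and library total) from mouse B cells. They were picked from the values described here, as genes that were abundant in splenic B2 cells, strongly reduced in peritoneal B2B1 cells and reduced to a varying degree in peritoneal B1 cells. Their levels and differences between the groups are therefore given as a description with no test, and all 8 were present and passed the filter on low values. The study compared 3 libraries of B2B1 cells, 3 of B1 cells and 3 of B2 cells by RNA-seq of polyA RNA. B2B1 cells came from the peritoneal cavity of the strain labelled B1-8VH12/Vk4, and a switch of the B cell receptor (BCR) was set off some 30 days ahead of isolation. B1 cells came from the peritoneal cavity of the same labelled strain, and B2 cells from the spleen of the strain labelled VH12B1-8/Vk4. The genetic background of all 3 groups is given as C57BL/6 (backcrossed). What drives the receptor switch and how many mice stand behind a library is not given in the labels. Xist, expressed from the inactive X chromosome of females, and the Y-linked Ddx3y split the B2B1 and B2 libraries. Ddx3y was at 56.9, 61.7 and 0.323 TPM in B2B1, at 0.109 to 0.285 TPM in B1 and at 0.215, 75.3 and 0.184 TPM in B2, and Xist was high in the libraries where Ddx3y was low. Libraries of both sexes thus stand in the B2B1 and B2 groups, and those of 1 sex in the B1 group, so p-values measure a spread between libraries that includes sex where it is mixed. Tissue and strain label differ together between the B2 libraries and the others, and their parts cannot be told apart from that of the cell type.

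B2 cells are the conventional B cells of spleen and lymph nodes, which circulate through follicles and supply germinal centres. B1 cells are a self-renewing population that is most frequent in the peritoneal and pleural cavities, secretes natural antibody and is selected by the specificity of its BCR. A B2B1 cell is a B2 cell whose receptor was exchanged for one of B1 type, and the study asks how far its transcripts then move from those of B2 cells to those of B1 cells. The 8 genes encode proteins of unlike kinds. Vpreb3 is a relative of the surrogate light chain protein VpreB that stays inside the cell and binds immunoglobulin chains as they are made. Lmo2 is a LIM-only adaptor that holds transcription factors together on DNA through Ldb1, and it is known both from blood stem cells and from germinal centre B cells. Neurl3 is a RING-type ubiquitin ligase with a Neuralized domain. Lrrk2 is a large protein with a kinase and a GTPase domain that phosphorylates Rab GTPases and is mutated in inherited Parkinson disease, and Dennd3 is an exchange factor that activates the GTPase Rab12. Treml2 is a surface receptor of the TREM (triggering receptor expressed on myeloid cells) family found on lymphoid and myeloid cells. Emid1 is a secreted protein with an EMI domain and collagen-like stretches, and Fam101b, now called Rflnb or refilin B, binds filamin and shapes actin bundles.

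The genes lie on 6 chromosomes. In the GENCODE M21 annotation of GRCm38, Vpreb3 is at chr10:75943057-75949657 (plus strand), Lmo2 at chr2:103957986-103981878 (plus) and Neurl3 at chr1:36264597-36274679 (minus). Emid1 is at chr11:5106265-5152257 (minus) and Fam101b at chr11:76019194-76027782 (minus). Treml2 is at chr17:48299498-48312533 (plus), Lrrk2 at chr15:91673175-91816120 (plus) and Dennd3 at chr15:73512560-73572242 (plus). All 8 are protein-coding. Another annotated gene lies within Vpreb3 (the pseudogene Gm16221), Lmo2 (the long noncoding RNA Gm38515) and Emid1 (the long noncoding RNA Gm46266 and the gene Gm39572), so reads there could not be assigned with certainty.

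Promoter sequences are shown because the 8 genes fell together, and they allow their start regions to be compared. RefSeq entries on GRCm38.p6, each from 250 bases before to 50 bases after the annotated start, matched 5 of the 8 genes. The entries of Vpreb3 and Neurl3 lie inside the GENCODE spans given above, so their starts are not the outer ends of those spans. Matches to the motifs named below are in capitals, on either strand, and the rest is in lower case.
Vpreb3, chr10:75948050-75948349, plus strand: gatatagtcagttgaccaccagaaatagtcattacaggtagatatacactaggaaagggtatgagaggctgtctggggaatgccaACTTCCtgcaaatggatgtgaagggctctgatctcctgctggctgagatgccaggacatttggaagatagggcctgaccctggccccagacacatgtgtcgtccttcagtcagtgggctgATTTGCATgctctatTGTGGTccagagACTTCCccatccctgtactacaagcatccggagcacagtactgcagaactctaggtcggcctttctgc
Neurl3, chr1:36273376-36273675, minus strand: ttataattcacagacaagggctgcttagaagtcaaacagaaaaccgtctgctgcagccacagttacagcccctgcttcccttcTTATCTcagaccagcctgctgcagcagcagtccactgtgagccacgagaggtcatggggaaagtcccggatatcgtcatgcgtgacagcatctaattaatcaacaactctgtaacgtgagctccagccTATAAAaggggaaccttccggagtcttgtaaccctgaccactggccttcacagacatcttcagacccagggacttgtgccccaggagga
Emid1, chr11:5152181-5152480, minus strand: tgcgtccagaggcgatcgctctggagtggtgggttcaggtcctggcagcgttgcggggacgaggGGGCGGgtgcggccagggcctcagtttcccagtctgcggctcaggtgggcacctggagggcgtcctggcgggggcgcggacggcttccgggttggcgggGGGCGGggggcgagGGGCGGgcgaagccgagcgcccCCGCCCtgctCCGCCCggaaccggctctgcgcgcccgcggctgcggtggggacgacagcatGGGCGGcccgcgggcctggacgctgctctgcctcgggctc
Fam101b, chr11:76027733-76028032, minus strand: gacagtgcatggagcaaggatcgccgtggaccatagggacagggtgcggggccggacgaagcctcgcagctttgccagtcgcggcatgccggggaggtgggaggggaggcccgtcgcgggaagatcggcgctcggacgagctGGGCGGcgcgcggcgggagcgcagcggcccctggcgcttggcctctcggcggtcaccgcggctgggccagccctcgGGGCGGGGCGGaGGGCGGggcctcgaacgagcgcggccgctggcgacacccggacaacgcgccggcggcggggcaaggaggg
Lrrk2, chr15:91672974-91673273, plus strand: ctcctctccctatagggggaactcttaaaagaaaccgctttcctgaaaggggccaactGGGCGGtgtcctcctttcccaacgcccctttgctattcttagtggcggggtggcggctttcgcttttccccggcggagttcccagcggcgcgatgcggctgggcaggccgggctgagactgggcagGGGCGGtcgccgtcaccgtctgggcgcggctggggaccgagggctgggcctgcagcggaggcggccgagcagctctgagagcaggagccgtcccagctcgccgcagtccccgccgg

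The promoters fell into unlike sequence types. Those of Emid1, Fam101b and Lrrk2 had a GC content of 77.3%, 77.0% and 68.7%, against a median of 52.7% over 32851 promoters of the same length, and each held GC boxes (GGGCGG), found in 35.7% of all promoters. Emid1 held 6 of them, Fam101b 4, of which 2 overlap by 1 base, and Lrrk2 2. The promoters of Vpreb3 and Neurl3 had 51.0% and 51.7% GC and no GC box. Vpreb3 held an octamer (ATTTGCAT), the sequence bound by Oct1 and Oct2 in immunoglobulin promoters, whose first base is 45 bases before the start. That octamer was present in 1.74% of all promoters. Vpreb3 also held the RUNX motif TGTGGT (16.8% of promoters) and, on the other strand, 2 copies of the ETS motif GGAAGT (23.8%). Neurl3 held a TATA box (TATAAA, 13.6%) and, on the other strand, the GATA motif AGATAA (11.2%). A second RefSeq promoter of Emid1 had 62.3% GC and held no GC box, but the E-box CAGCTG (16.3%) and TGTGGT. None of the 6 promoters held CCAAT, the palindromic EBF motif, the Kruppel-like motif GGGTGTGG or the RBPJ motif GTGGGAA in these windows. The looser E-box CANNTG, not capitalised, was in 4 of 6, against 72.3% of all promoters.

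Vpreb3 and Lmo2 had the highest levels in B2 cells. Vpreb3 stood at 1.07, 0.708 and 0.628 TPM in the B2B1 libraries, at 1.53, 12.8 and 1.20 TPM in the B1 libraries and at 267.2, 273.8 and 281.8 TPM in the B2 libraries. Every B2B1 library was below every B1 library, and all 6 were far below the B2 libraries, but the second B1 library stood well above the other 2. B2B1 cells kept 0.292% of the mean B2 level and B1 cells 1.89%, of which the second B1 library alone had 4.67%. On the log2(TPM + 1) scale, used for all log2 differences here, B2B1 minus B2 was -7.26 (SE 0.58) and B1 minus B2 -6.02 (SE 0.58). Because 1 is added to each value, such differences understate the change of genes near 0, and the order of the 8 by size of their fall depends on it: with 0.1 added, B2B1 minus B2 was -8.74 for Emid1, -8.28 for Vpreb3, -7.77 for Fam101b, -7.27 for Dennd3 and -7.04 for Lmo2. B2B1 minus B1 was -1.25, and -0.40 without the second B1 library.

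Lmo2 had 1.22, 2.27 and 5.20 TPM in B2B1, 17.1, 18.1 and 11.4 TPM in B1 and 330.0, 349.4 and 326.2 TPM in B2. The 3 groups did not overlap, with B1 libraries between the others. Lmo2 averaged 2.90 ± 2.07 TPM in B2B1, 15.5 ± 3.59 TPM in B1 and 335.2 ± 12.5 TPM in B2 cells (SD, n = 3 each), so 0.864% of the B2 level was kept in B2B1 and 4.63% in B1. The log2 differences were -6.56 (SE 0.32) for B2B1 minus B2, -4.37 for B1 minus B2 and -2.19 for B2B1 minus B1.

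Neurl3 and Dennd3 showed the same stepwise order, with B1 between B2B1 and B2. Neurl3 had 6.46, 4.99 and 4.95 TPM in B2B1, 16.6, 12.8 and 14.3 TPM in B1 and 265.1, 245.4 and 244.1 TPM in B2. Its libraries were close to each other within each group, and the groups did not overlap. Means of 5.47 ± 0.862 TPM in B2B1, 14.6 ± 1.89 TPM in B1 and 251.5 ± 11.8 TPM in B2 cells (SD, n = 3 each) correspond to 2.17% of the B2 level in B2B1 and 5.79% in B1. B2B1 minus B2 was -5.29 (SE 0.12), B1 minus B2 -4.03 and B2B1 minus B1 -1.27. Neurl3 thus fell steeply but held the highest B2B1 level after Lrrk2.

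Dennd3 had 0.336, 0.484 and 0.462 TPM in B2B1, 11.3, 3.57 and 10.3 TPM in B1 and 83.2, 77.0 and 82.0 TPM in B2. It kept the most in B1 cells, 10.4% of the B2 level, and 0.529% in B2B1 cells, with no overlap of any groups. The second B1 library was the lowest of its group. B2B1 minus B2 was -5.84 (SE 0.32), B1 minus B2 -3.25 and B2B1 minus B1 -2.59, which is the widest gap between B2B1 and B1 among the 8, and it was -3.05 without the second B1 library.

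Lrrk2, which like Dennd3 acts on Rab GTPases, had the reverse order of means in the peritoneal groups. It had 1.97, 5.41 and 10.5 TPM in B2B1, 2.70, 2.13 and 2.33 TPM in B1 and 206.9, 200.9 and 198.9 TPM in B2. The B2B1 libraries spread over a wide range that covered the narrow B1 range, and both were far below B2. The means were 5.96 ± 4.29 TPM in B2B1, 2.39 ± 0.291 TPM in B1 and 202.2 ± 4.17 TPM in B2 cells (SD, n = 3 each), or 2.95% and 1.18% of the B2 level in B2B1 and B1. With all libraries kept, Lrrk2 was the only one of the 8 with a higher mean in B2B1 than in B1 cells. Its first B2B1 library, with 1.97 TPM, was below every B1 library, and the third, with 10.5 TPM, was the highest. B2B1 minus B2 was -5.07 (SE 0.39), B1 minus B2 -5.91 and B2B1 minus B1 0.84.

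Treml2, Fam101b and Emid1 were low in both peritoneal groups, whose libraries overlapped for all 3 genes. Treml2 had 0.870, 1.85 and 1.23 TPM in B2B1, 0.914, 4.18 and 0.697 TPM in B1 and 109.7, 108.5 and 108.2 TPM in B2. The second B1 library was the highest of the peritoneal libraries, while the B2 libraries were nearly equal. B2B1 cells kept 1.21% of the B2 level and B1 cells 1.77%. B2B1 minus B2 was -5.59 (SE 0.37), B1 minus B2 -5.42 and B2B1 minus B1 -0.17, which turned to 0.34 without the second B1 library.

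Fam101b had 0.102, 0.212 and 0.241 TPM in B2B1, 0.156, 0.436 and 0.192 TPM in B1 and 64.5, 56.3 and 61.3 TPM in B2. All 6 peritoneal libraries were under 1 TPM, and 0.305% of the B2 level was kept in B2B1 and 0.431% in B1. Emid1 was listed at 0, 0.0555 and 0 TPM in B2B1, at 0.0360, 0.171 and 0 TPM in B1 and at 50.3, 54.3 and 44.2 TPM in B2. It was thus at or near 0 in every peritoneal library, and no fold is given against libraries listed at 0. The log2 differences of B2B1 minus B2 were -5.70 (SE 0.12) for Fam101b and -5.63 (SE 0.12) for Emid1. B1 minus B2 was -5.62 for Fam101b and -5.56 for Emid1, and B2B1 minus B1 -0.09 and -0.07.

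**Figure D1:**
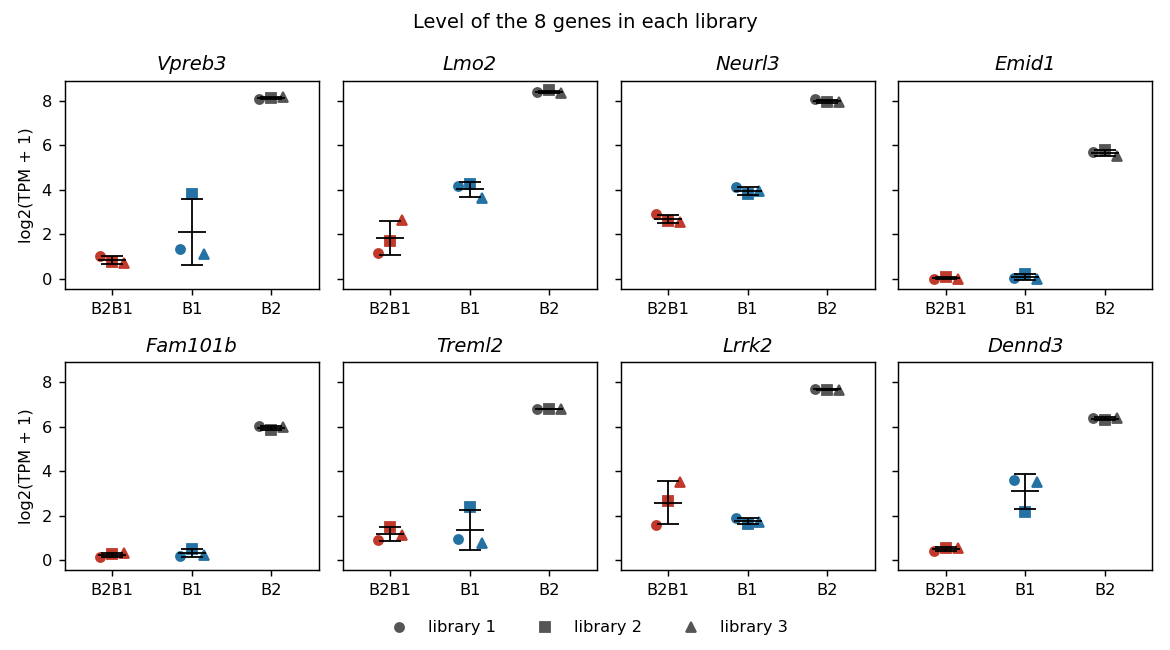
Each panel shows 1 of the 8 genes, with log2(TPM + 1) on the vertical axis for the 3 B2B1, the 3 B1 and the 3 B2 libraries as points, and the group mean with 1 SD in black. The B2 points stand for 44.2 to 349.4 TPM, and the peritoneal points for 0 (Emid1) to 18.1 TPM (Lmo2 in B1).

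Set beside all genes, 8 of 8 had B2B1 libraries that were all below the B2 libraries, as 47.7% of the 11099 tested genes had, and 8 of 8 had B1 libraries all below B2, against 39.8% of the tested genes. These counts follow from how the genes were chosen. In B2B1 against B1, whose values bore on the choice as well, 4 of 8 (Vpreb3, Lmo2, Neurl3 and Dennd3) did not overlap and were lower in B2B1, against 23.7% of the tested genes. The median log2 difference of the 8 was -5.67 for B2B1 minus B2, where the median of all tested genes was -0.19. It was -5.49 for B1 minus B2, with -0.14 over all tested genes, and -0.71 for B2B1 minus B1, with -0.06 over all, but -0.20 without the second B1 library. By size of the fall in B2B1 on the log2(TPM + 1) scale, the 8 genes ranked from 4 (Vpreb3) to 16 (Lrrk2) of 11099. By size of the fall in B1 cells they spread further, from 6 (Vpreb3) and 7 (Lrrk2) to 31 (Neurl3) and 62 (Dennd3).

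No fixed threshold marks the edge of the choice. Of 3115 tested genes with a mean in B2 cells of at least 49.6 TPM, the level of Emid1, 15 fell in B2B1 by at least as much as Lrrk2, and the 8 are among them. The other 7 were Cr2, I830077J02Rik, Pde2a, Fcer2a, Icosl, Ccr6 and Lta. Among genes of at least that B2 level, the nearest beyond the value of Lrrk2 (-5.07) were Pglyrp2 with -4.76, Pag1 with -4.75 and Satb1 with -4.62. The submitters deposited a signature of 28 genes, and 5 of the 8 (Neurl3, Emid1, Fam101b, Lrrk2 and Dennd3) are in it, while Vpreb3, Lmo2 and Treml2 are not.

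**Figure D2:**
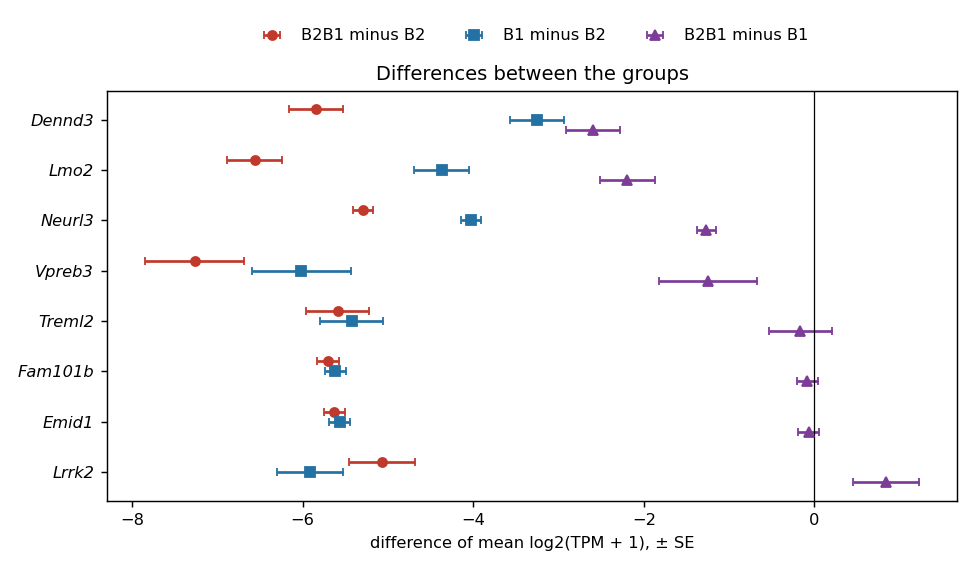
Log2 differences of the 8 genes on the log2(TPM + 1) scale for B2B1 minus B2, B1 minus B2 and B2B1 minus B1, with bars of 1 SE from the fit over all genes. The first 2 differences lie between -7.26 (Vpreb3, B2B1 minus B2) and -3.25 (Dennd3, B1 minus B2), and B2B1 minus B1 runs from -2.59 (Dennd3) to 0.84 (Lrrk2).

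In B2 cells the order of levels, which TPM give per length, was Lmo2, Vpreb3, Neurl3, Lrrk2, Treml2, Dennd3, Fam101b and Emid1, and no neighbours in it overlapped. This order was not kept in the peritoneum. In B2B1 cells Lrrk2 and Neurl3 led with 5.96 and 5.47 TPM, followed by Lmo2 with 2.90 TPM, and the ranges of these 3 overlapped. In B1 cells Lmo2 and Neurl3 led with 15.5 and 14.6 TPM and overlapping ranges, followed by Dennd3 with 8.39 TPM and Vpreb3 with 5.18 TPM. The place of Vpreb3 in B1 rests on the second library (12.8 TPM), since the other 2, with 1.53 and 1.20 TPM, were below all B1 libraries of Lrrk2. Fam101b and Emid1 were last in all 3 groups.

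The libraries of a group differed in which genes they kept. Summed over the 8, the level was 12.0, 16.0 and 23.2 TPM in B2B1, 50.3, 54.2 and 40.4 TPM in B1 and 1377, 1366 and 1347 TPM in B2. The second B1 library was at one end of its group for every gene, highest for Vpreb3, Lmo2, Emid1, Fam101b and Treml2 and lowest for Neurl3, Lrrk2 and Dennd3. The median share of the B2 level that the 8 genes kept was 0.402%, 0.638% and 0.852% in the B2B1 libraries and 1.09%, 4.13% and 0.896% in the B1 libraries. Mki67, a marker of dividing cells, was at 28.2, 12.2 and 10.3 TPM in B2B1, at 2.98, 19.4 and 3.19 TPM in B1 and at 1.10, 2.04 and 1.88 TPM in B2. In the second B1 library its high value came with high values of Vpreb3 and Treml2. The first B2B1 library had the most Mki67 of all. It had Vpreb3 at 1.07 TPM, the highest of its group, and Treml2 at 0.870 TPM, the lowest of its group. The part of dividing cells in these levels was not tested. Xist exceeded 100 TPM in the third B2B1 library, in all 3 B1 libraries and in 2 B2 libraries. With those libraries alone, where B2B1 is 1 library and its spread is taken from the other groups, B2B1 minus B2 of Lmo2 was -5.73 and B2B1 minus B1 -1.39. Lmo2 was not alone in this, since that B2B1 library was the highest of its group for Lmo2 (5.20 TPM), Fam101b (0.241 TPM) and Lrrk2 (10.5 TPM).

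The labelled cell type was borne out by its markers. The 10 markers of B cells summed to 10780 to 12090 TPM in B2B1, 10960 to 13240 TPM in B1 and 12810 to 13020 TPM in B2, and none was at 0. Fcer2a (CD23), a marker of follicular B2 cells, was at 1.66 to 2.40 TPM in B2B1, 5.96 to 11.1 TPM in B1 and 1112 to 1283 TPM in B2. The B1 marker Cd5 was at 13.4 to 22.9 TPM in B1 cells, but at 1.22 to 1.85 TPM in B2B1 and 0.609 to 1.09 TPM in B2. In bulk libraries such as these, fewer cells of a type and less RNA per cell cannot be told apart. The 18 macrophage markers in the table summed to 419.5, 184.9 and 190.0 TPM in B2B1, to 77.5 to 132.7 TPM in B1 and to 38.8 to 55.8 TPM in B2, where Gata6 and Vsig4 were listed at 0. Of the 9 macrophage markers tested, 8 were higher in B2B1 than in B2 cells. In B1 against B2, 1 was higher (Emr1), 1 lower (Cd5l) and 7 not called. Emr1, which encodes F4/80, had 44.0 TPM in B2B1, 18.1 TPM in B1 and 0.384 TPM in B2. It was even across the B2B1 libraries (52.0, 39.9 and 40.1 TPM), while Lyz2 peaked in the first (180.9, 22.3 and 44.5 TPM). Gata6 was at most 0.143 TPM in any library. T cell markers summed to 816.2 to 899.9 TPM in B2B1, 744.4 to 909.8 TPM in B1 and 286.9 to 340.0 TPM in B2, nearly all of it Cd2, while Cd3e was at most 0.0837 TPM in any library. Dendritic cell markers summed to 1183 to 1560 TPM in B2B1, 1404 to 1747 TPM in B1 and 2958 to 3121 TPM in B2, mostly Ly6d, with Itgax at most 0.469 TPM. Plasma cell markers summed to 514.3 to 637.3 TPM in B2B1, 392.6 to 507.8 TPM in B1 and 283.2 to 308.3 TPM in B2, with Sdc1 at most 2.23 TPM. The part of such cells in the levels of the 8 genes was not tested.

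The genes nearest in profile were found by the root mean square difference of log2(TPM + 1) over the 9 libraries, each gene centred on its own mean. Among the 8, Emid1 and Fam101b were closest to each other (0.117), and the pairs Lrrk2 with Dennd3 and Vpreb3 with Dennd3 were farthest apart (1.56 each). Outside them, Emid1 and Fam101b shared their neighbours, with I830077J02Rik at 0.211 from Emid1 and 0.251 from Fam101b, followed by Zfp608 and Lta. In the peritoneal libraries Emid1 was at most 0.171 TPM and Fam101b at most 0.436 TPM, and the 1 added hides differences so near 0. With 0.1 added, B2B1 minus B2 was -8.74 for Emid1 and -7.77 for Fam101b. Treml2 was nearest to Lta (0.217), which encodes lymphotoxin alpha, and then to Myl4 (0.280) and Zfp608 (0.462). Neurl3 was nearest to Pag1 (0.270), a membrane adaptor that anchors the kinase Csk, then to Pglyrp2 (0.355) and Nlrc3 (0.406). Lrrk2 was nearest to I830077J02Rik (0.595), Zfp608 (0.628) and Ccr6 (0.660), and Dennd3 to Pag1 (0.697), Snord123 (0.726) and Cyp27a1 (0.767). Lmo2 was nearest to Pde2a (0.851), Pag1 (0.861) and Pglyrp2 (0.887). Vpreb3, with its wider scatter, was nearest to Fcer2a (0.825), Cr2 (0.864) and Icosl (0.874), which encode CD23, complement receptor 2 and the ligand of ICOS.

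The relatives and partners of each gene were described from lists, and unlike the 8 they were tested, with limma over all 11099 genes. By adjusted p under 0.05, 21.0% of the tested genes were higher and 42.0% lower in B2B1 than in B2, and 18.0% were higher and 33.9% lower in B1 than in B2. With median-of-ratios scaling, 3380 of the 11099 genes were higher and 3171 lower in B2B1, and 2770 were higher and 2547 lower in B1. Paralogs of 4 of the 8 genes differed in level. Vpreb2 was listed at 0 throughout, and Vpreb1 averaged 1.40 TPM in B2B1, 1.11 TPM in B1 and 0.421 TPM in B2, too low to be tested, as was Fam101a with 0.171, 0.152 and 0.113 TPM in B2B1, B1 and B2. Lrrk1, the paralog of Lrrk2, was expressed at 23.0 TPM in B2B1, 23.6 TPM in B1 and 24.2 TPM in B2 and missed the threshold (-0.07 on the log2 scale for B2B1 against B2, adjusted p = 0.398, with a sign that turned to 0.13 with median-of-ratios scaling and to 0.11 with quantile normalization). Neurl2, a relative of Neurl3, fell too, to 3.60 TPM in B2B1 and 3.65 TPM in B1 against 27.2 TPM in B2 (log2 fold change -2.66, adjusted p = 1.33e-05 in B2B1). Lrrk1, Neurl2 and the paralogs at low level were chosen after their values were seen.

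Of 21 tested genes of the surrogate light chain and immature B cell list, 5 were higher and 12 lower in B2B1 than in B2 (median log2 fold change -0.92), and 6 were higher and 10 lower in B1 (-0.34). With median-of-ratios scaling, which moved the median of all tested genes to about 0, 8 were higher in B2B1. Those that fell in B2B1 included Cd55, a complement regulator, with 60.9 TPM in B2B1, 138.8 TPM in B1 and 519 TPM in B2 (log2 fold change -3.07, adjusted p = 1.03e-07 for B2B1 against B2). Tnfrsf13c, the receptor for the survival factor BAFF, fell by 1.57 (adjusted p = 2.91e-06) and the BCR adaptor Blnk by 1.24 (8.1e-06) on the log2 scale. Those that rose included Cd24a, a surface protein high on immature B cells, with 1998 TPM in B2B1, 778.5 TPM in B1 and 315.3 TPM in B2 (log2 fold change 2.63, adjusted p = 3.78e-06), Ly86 (0.61), Syk (0.59) and Cecr2 (0.35). The call of Cecr2 was lost without the third B2B1 library or without any 1 of the B2 libraries. The list also holds Chchd10, the chromosomal neighbour of Vpreb3 described with the neighbours, which fell most in it, and Bach2, which the germinal centre list holds too. Vpreb3 therefore sat in a list that moved both ways.

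The list of the LMO2 complex and LMO family held 14 tested genes, of which 4 were higher and 7 lower in B2B1 than in B2 and likewise 4 higher and 7 lower in B1. The medians of -0.22 in B2B1 and -0.17 in B1 were close to those of all tested genes (-0.19 and -0.14). Ldb1, the direct partner of Lmo2, fell to 137.6 TPM in B2B1 and 151.0 TPM in B1 against 254 TPM in B2 (log2 fold change -0.88, adjusted p = 1.15e-05 for B2B1), and Runx1 fell by 1.01 (adjusted p = 7.41e-06) and Ssbp2 by 1.76 (1.68e-05). The 4 that rose were Tcf4, an E protein (1.27, adjusted p = 2.22e-05), Cbfa2t3 (1.17), Ssbp3 (1.14) and Ssbp4 (0.70).

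Among 21 tested genes of the Neuralized family and Notch ubiquitination, 6 were higher and 11 lower in B2B1 and 3 higher and 12 lower in B1 (medians -0.45 and -0.52). Notch2, the receptor needed for marginal zone B cells, averaged 60.5 TPM in B2B1, 86.0 TPM in B1 and 177.8 TPM in B2 (log2 fold change -1.54, adjusted p = 5.16e-07 for B2B1). Its targets Hes1 and Nrarp fell further, Hes1 by 2.79 (adjusted p = 7.75e-07) to 5.95 TPM in B2B1 and 15.6 TPM in B1 against 46.9 TPM in B2, and Nrarp by 2.50 (1.14e-06). Notch1 fell by 1.37 (2.51e-06).

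Of 30 tested genes of the LRRK2 family, its Rab substrates and partners, 13 were higher and 5 lower in B2B1, and 8 higher and 5 lower in B1 (medians 0.09 and 0.07). Most calls thus ran opposite to Lrrk2. The 5 that were lower in B1 became 2 or 3 when the first or the third library of any group was left out, and with median-of-ratios scaling 14 were higher and 2 lower in B1. Rilpl2, which binds Rabs phosphorylated by LRRK2, averaged 233 TPM in B2B1, 87.1 TPM in B1 and 28.1 TPM in B2 (log2 fold change 3.01, adjusted p = 5.63e-09 for B2B1), and its relative Rilpl1 rose by 2.35 (9.75e-06). Rab7 rose by 0.52 (2.73e-05). The 5 that fell in B2B1 were Mapk8ip3 (-0.71), Rab8a (-0.67, adjusted p = 2.6e-05), Spag9 (-0.57), Bag5 (-0.52) and Rab12 (-0.27). Rab12, the GTPase that Dennd3 activates and Lrrk2 phosphorylates, had 19.4 TPM in B2B1, 20.4 TPM in B1 and 23.6 TPM in B2 (adjusted p = 0.0112), but it was no longer called under median-of-ratios scaling (-0.08, adjusted p = 0.4) or quantile normalization (-0.08, adjusted p = 0.339).

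Of 23 tested DENN domain exchange factors and genes of the RAB12 route, 3 were higher and 15 lower in B2B1 and 3 higher and 11 lower in B1 (medians -0.36 and -0.22), but with median-of-ratios scaling the counts were 4 higher and 9 lower in B2B1 and 3 higher and 4 lower in B1. The 11 lower in B1 also became 5 or 6 without the third B1 library or any 1 of the B2 libraries. Dennd2d had 8.20 TPM in B2B1, 15.8 TPM in B1 and 67.3 TPM in B2 (log2 fold change -2.92, adjusted p = 1.79e-06 for B2B1), Dennd1c fell by 0.86 (3.78e-06) and Avl9 by 0.67 (8.71e-05). The 3 that rose were Sbf2, with 21.1 TPM in B2B1, 35.1 TPM in B1 and 3.32 TPM in B2 (2.36, adjusted p = 7.57e-07), Fnip1 (0.85) and Smcr8 (0.34).

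The TREM family and its adaptors held 7 tested genes, and 4 were higher and 3 lower in B2B1 as well as in B1 (medians 0.59 and 1.37). Cd300lf averaged 179.3 TPM in B2B1, 108.5 TPM in B1 and 7.48 TPM in B2 (log2 fold change 4.39, adjusted p = 1.66e-07 for B2B1). Tyrobp, the adaptor DAP12, rose by 2.07 (2.77e-07) and Nfam1 by 1.61 (9.7e-06). Pilra was called with 0.59 (adjusted p = 0.0371), a call lost without any 1 of the B2B1 libraries, without the first or the third B1 library and without the third B2 library. Trem1, whose gene neighbours Treml2, fell by 1.51 (4.34e-05), Cd300a by 1.10 and Hcst by 0.57.

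In the list of refilins, filamins and perinuclear actin, 6 of 21 tested genes were higher and 7 lower in B2B1, and 7 higher and 6 lower in B1 (medians -0.05 and -0.01), with 4 higher in B1 when the third B1 or the first B2 library was left out. The actin cross-linker Actn1 averaged 35.2 TPM in B2B1, 25.6 TPM in B1 and 0.181 TPM in B2 (log2 fold change 4.83, adjusted p = 1.28e-06 for B2B1), Vim rose by 3.12 (2.56e-06) and Lsp1 by 1.57 (4.32e-06). The formin Fmnl3 fell by 2.72 (1.06e-06). Only 2 genes of the EMI domain and microfibril list could be tested besides Emid1. Emilin2 rose to 4.75 TPM in B2B1 and 9.51 TPM in B1 against 0.0931 TPM in B2 (2.38, adjusted p = 0.0016 for B2B1), and Pear1 fell to 12.0 TPM in B2B1, with 20.1 TPM in B1 and 21.0 TPM in B2 (-0.76, adjusted p = 0.000101).

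Lmo2 and Neurl3 are also known from germinal centres. Of 16 tested germinal centre genes, 3 were higher and 9 lower in B2B1 and 3 higher and 10 lower in B1 (medians -0.73 and -1.18). Bcl6, the master repressor of that state, had 3.26 TPM in B2B1, 6.92 TPM in B1 and 42.0 TPM in B2 (log2 fold change -3.47, adjusted p = 7.01e-05 for B2B1), and Bach2 fell by 2.82 (2.35e-05) and Il21r by 2.25 (4.75e-05). Rgs13 (2.17) and S1pr2 (0.67) were among those that rose. Of 22 follicular and marginal zone markers, 15 were lower in B2B1 and 18 in B1, and Klf2 was higher, with 511.1 TPM in B2B1, 457.5 TPM in B1 and 330.0 TPM in B2 (0.62, adjusted p = 0.00365 for B2B1). Of 17 B1 markers, 14 were higher in each of B2B1 and B1, while Tnfaip8 (-0.45, adjusted p = 0.0199) and Siglecg (-0.25, adjusted p = 0.00864) were lower in B2B1. Both of these calls were lost with median-of-ratios scaling, and that of Tnfaip8 also with quantile normalization and without the second B2B1 or the second B2 library.

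**Figure D3:**
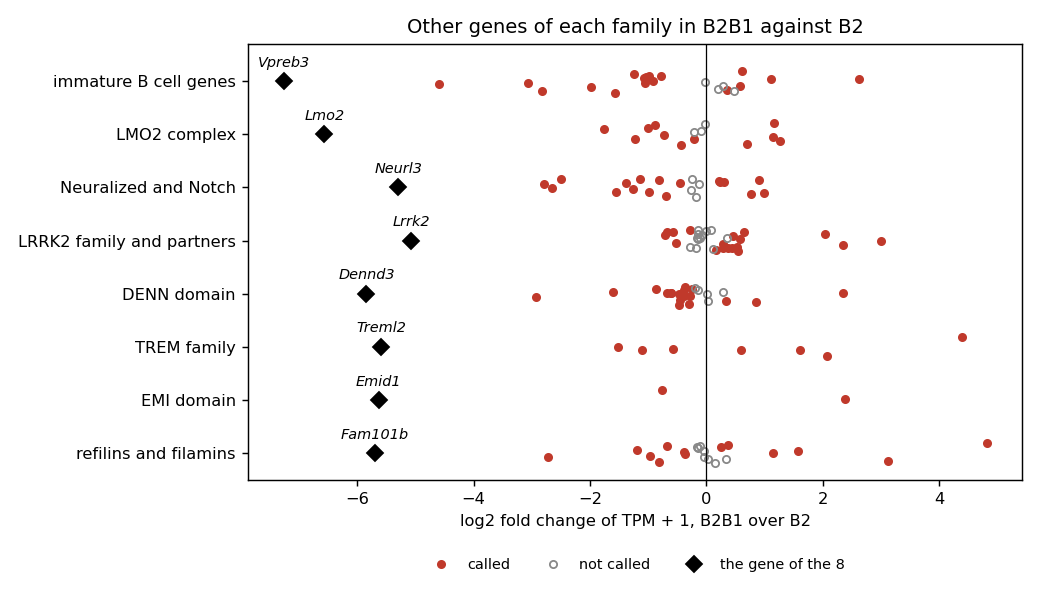
Log2 fold change of B2B1 over B2 for each tested gene of the lists of relatives and partners, 1 row per list, with called genes filled (limma, adjusted p under 0.05), others open, and the gene of the 8 as a black diamond. The diamonds lie between -7.26 and -5.07, left of the list genes, of which 13 are higher and 5 lower in the LRRK2 list and 3 higher and 15 lower in the DENN list.

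Genes next to the 8 on the chromosome were tested as well. Of the 16 nearest tested genes, 1 on each side, 10 were lower and none higher in B2B1 than in B2 (62.5% lower, against 42.0% of all tested genes), and 9 were lower and none higher in B1 (56.2% against 33.9%). The 16 include both neighbours of Lrrk2, which lie 993 and 1420 kb away and were lower in B2B1 and in B1. With median-of-ratios scaling the counts of the 16 were 8 lower and 3 higher in B2B1 and 8 lower and 2 higher in B1. Over all 11099 tested genes, that scaling gave 3171 lower and 3380 higher in B2B1 and 2547 lower and 2770 higher in B1. Within 250 kb, 22 of 49 were lower (44.9%) and 10 higher in B2B1, and 18 lower (36.7%) and 9 higher in B1, shares close to those of all tested genes. The same scaling gave 16 lower and 16 higher in B2B1 and 14 lower and 14 higher in B1 within that distance. Chchd10, a mitochondrial protein gene 5.27 kb from Vpreb3, fell most. It had 2.72, 4.95 and 5.63 TPM in B2B1, 4.93, 12.9 and 3.50 TPM in B1 and 132.8, 136.1 and 110.0 TPM in B2. All peritoneal libraries were far below B2, and the second B1 library was the highest of them, as it was for Vpreb3. The log2 fold change of Chchd10 was -4.59 (SE 0.38, adjusted p = 1.06e-05) for B2B1 against B2 and -4.14 (adjusted p = 2.83e-05) for B1 against B2.

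Genes around Vpreb3 moved in unlike ways. Mmp11, a secreted protease gene 10.5 kb from Vpreb3, fell too. It was listed at 0.0509, 0 and 0 TPM in B2B1, at 0 in all 3 B1 libraries and at 4.82, 4.67 and 5.71 TPM in B2 (log2 fold change -2.57, adjusted p = 8.95e-07 for B2B1 against B2). Derl3, 47.1 kb away, went the other way, with 77.3 ± 15.7 TPM in B2B1, 36.7 ± 15.6 TPM in B1 and 3.22 ± 0.964 TPM in B2 (log2 fold change 4.22, adjusted p = 3.34e-06 for B2B1). Mmp11 and Derl3 were chosen after their values were seen. On the other side of Vpreb3, Gm5134 at 4.84 kb had 2.30 to 3.54 TPM in B2B1, 2.62 to 2.94 TPM in B1 and 3.00 to 3.58 TPM in B2.

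The other neighbours that fell did so by less. Rph3al, 51.6 kb from Fam101b, fell by 2.48 (adjusted p = 1.3e-05), Trem1, 52.5 kb from Treml2, by 1.51, and Slc45a4, 5.18 kb from Dennd3, by 1.48 (4.55e-06) in B2B1 against B2. Arid5a, 33.1 kb from Neurl3, fell by 1.38 (2e-05), and Fbxo3, 45.9 kb from Lmo2, by 0.45 (0.00278). Lrrk2 has no tested neighbour within 250 kb. The nearest ones, Cpne8 at 993 kb and Gxylt1 at 1420 kb, fell by 1.59 (1.33e-05) and 0.66 (0.000189). B430306N03Rik next to Treml2 (-0.87, adjusted p = 0.0293) and Ptk2 next to Dennd3 (-0.65, adjusted p = 0.0267) lost their calls without the third B2B1 library or without any 1 of the B2 libraries, and Ptk2 also without the first B2B1 library. With median-of-ratios scaling neither passed (-0.70, adjusted p = 0.0679, and -0.47, adjusted p = 0.112), nor did Ptk2 with quantile normalization (-0.55, adjusted p = 0.0715). Rhbdd3, whose end lies 0.165 kb from that of Emid1, was not called, with 1.94, 3.17 and 2.35 TPM in B2B1, 1.17, 4.13 and 2.26 TPM in B1 and 1.24, 3.83 and 1.95 TPM in B2.

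**Figure D4:**
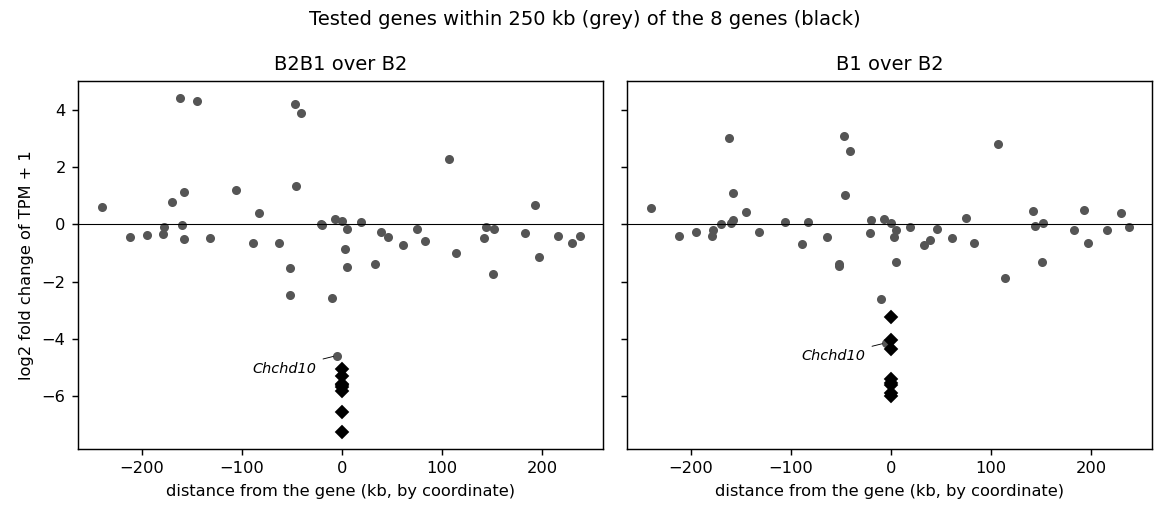
Log2 fold change of tested genes within 250 kb of the 8 genes (grey) against the distance in kb, for B2B1 over B2 (left) and B1 over B2 (right), with the 8 genes at 0 kb in black. Chchd10 is the lowest of the 49 neighbours in both panels (-4.59 and -4.14).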

How the data were processed

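RNA-seq of polyA RNA gave 9 libraries of mouse B cells, assigned to B2B1, B1 and B2 by their labels. RNA extraction used an RNeasy micro kit and library construction a TruSeq RNA Sample kit v2, per the labels' protocols. The tools were CASAVA 1.8.2 and kallisto and the build mm10, per the submitters' processing notes, and neither the kallisto version nor its transcripts or strand setting is stated in the labels or notes. The authors deposited TPM per gene symbol, which are scaled to gene length and library total, so each value is relative to all other genes and read depth is unknown. Listed genes sum to 894515 to 943043 TPM per library. No counting interval could be given. No 2 libraries held identical values (0 identical pairs).

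Values were analysed as log2(TPM + 1) for 11099 genes with a mean of at least 1 TPM over the 9 libraries. The 3 comparisons were fitted with limma 3.58.1 (R 4.3.3, eBayes with trend) in one model with no covariate, and p-values were adjusted by the Benjamini-Hochberg method over all tested genes, with calls at an adjusted p under 0.05. The p-values measure only the spread between libraries. The fit was tested on simulated data. The 8 genes, the lists and the rule for naming other genes (per list up to 4 with the smallest adjusted p and any gene of a count of 5 or fewer, the 3 nearest profiles, the nearest neighbours and the defining markers) were chosen with earlier results of these data known. Some genes that the rule names are left out of the text. Symbols were matched to RefSeq for 22064 genes, and coordinates came from GENCODE M21 on GRCm38, of which mm10 is another name. Alternatives were other pseudocounts, filters, scalings, weights, a replicate block and leaving out libraries. Figures were drawn with matplotlib 3.10.9.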

Additional observations from a re-analysis of the deposited data

How the results depend on the processing

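The direction of all 8 genes against B2 held under every alternative run, in B2B1 and in B1, which follows from how the genes were chosen. The size depended on the pseudocount: the median log2 difference of the 8 for B2B1 minus B2 (-5.67) was -7.16 with 0.1, -6.47 with 0.5 and -5.08 with 2, and -5.54 with median-of-ratios scaling, and for B1 minus B2 (-5.49) it was -6.26, -5.96 and -4.71 with those pseudocounts. Leaving out 1 library at a time gave -5.73 to -5.63 and -5.67 to -5.32. For B2B1 minus B1 (-0.71) the range was -0.87 to -0.20, and -0.24 without the first B2B1 and second B1 library together. Calls over all genes were 2332 higher and 4663 lower in B2B1 against B2, 2003 and 3762 in B1 against B2, and 769 and 1339 in B2B1 against B1. Leaving out a library gave 2024 to 2468 higher and 4060 to 4890 lower, 1713 to 2043 and 3038 to 3928, and 531 to 1019 and 789 to 1426. With only the 6 libraries of B2B1 and B1 the last pair was 448 and 681. With only libraries over 100 TPM of Xist the counts were 1453 and 2770 in B2B1 against B2 and 194 and 214 in B2B1 against B1, but B2B1 is then 1 library that is assumed to vary like the other groups. Median-of-ratios scaling moved the median of all genes for B2B1 minus B2 to -0.0031, against -0.19 without it, and the share of calls that were higher to 51.6%, against 33.3% without it, with 52.1% against 34.7% in B1 against B2 and 52.6% against 36.5% in B2B1 against B1. Lrrk1, which passed in no setting named here, changed sign with median-of-ratios scaling (0.13 in B2B1 and 0.10 in B1 against B2), with quantile normalization (0.11 and 0.090) and, in B1, across single libraries left out (-0.083 to 0.024). The cause was not tested. With the replicate number as a replicate block, calls were 2284 and 4571, 1962 and 3571, and 670 and 1067, and Cecr2 lost its call. Deviations of same-numbered libraries from their group means correlated with r from -0.06 to 0.12, over 0.1 in 1 of 9 pairs. In 3 of 9 comparisons of 1 library with the 3 of another group, r was highest for the same number. With 3 libraries per group, such values cannot settle whether the numbers pair the libraries. Depth is unknown from TPM, which limits what can be said of values near 0.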

Other observations

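Il9r, which encodes the receptor for interleukin 9, is a contrast to the 8 genes among markers of splenic B2 cells, and it was chosen after its values were seen. It had 223.6, 228.6 and 153.4 TPM in B2B1, 4.09, 1.92 and 4.87 TPM in B1 and 362.9, 396.5 and 378.8 TPM in B2. The B2B1 libraries thus had 58.9%, 60.3% and 40.4% of the mean B2 level of Il9r, and the B1 libraries at most 4.87 TPM, whereas none of the 8 genes had a B2B1 library above 10.5 TPM.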
